A study of Rattus norvegicus with 18 samples.

Results

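A set of 9 genes of cell contact were followed through ovulation in rat ovarian follicles: the connexins Gja1, Gja4, Gja5 and Gjc1, the cadherins Cdh1 and Cdh2, the claudins Cldn1 and Cldn11, and the junction scaffold Tjp1. They were the genes whose probe sets carried 1 of these symbols, and no other, in the annotation of the array. The 9 genes had 19 probe sets, of 14217 genes and 31099 probe sets in all. Of the 19 probe sets, 11 passed the filter on low signals, and these covered 8 of the 9 genes. Cdh1 had no probe set that passed.

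The follicles came from Crl:CD(SD) rats and were cut by laser microdissection from frozen sections 8 micrometres thick, with 15 follicles per phase stated in the labels. Gene expression was measured on 18 arrays, 3 in each of 6 groups. IM UF and RU UF were unruptured follicles taken at 10:00 of estrus from rats given a single oral dose of indomethacin, 4 mg/kg at 16:00 of proestrus, or of RU486, 100 mg/kg at 10:00 of proestrus. Control PoF were post-ovulatory follicles of untreated rats at the same hour. IM PeF, RU PeF and control PeF were the peri-ovulatory follicles of the same 3 treatments at 22:00 of proestrus. Indomethacin inhibits the cyclooxygenases that make prostaglandins, and RU486 blocks the progesterone and glucocorticoid receptors. The controls were labelled as non-treated, so vehicle and drug cannot be told apart. Only the untreated follicles had ruptured by 10:00, so drug and lack of rupture cannot be told apart at that hour. The labels state 3 animals per group and time without tying samples to animals, so the p-values measure the spread between these samples.

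Gap junctions are channels that join the interiors of neighbouring cells, and each channel is built of connexins. In the ovary, Gja1 (connexin 43) couples granulosa cells to each other, and Gja4 (connexin 37) couples the oocyte to the granulosa cells around it. The surge of luteinizing hormone before ovulation closes this network, and the follicle wall loosens and ruptures. Cadherins hold cells together at adherens junctions, claudins seal tight junctions, and Tjp1 (ZO-1) ties both kinds of junction, and connexins, to the cytoskeleton.

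The levels below are log2 of quantile-normalized signals with a pseudocount of 2.79, so a fold change understates the change of a dim gene. A difference was called when its adjusted p from limma, with Benjamini-Hochberg adjustment over the 18155 probe sets tested, was under 0.05. Array background was the brightest of the 27 unspiked control probe sets. The median deposited signal of an array ran between 4.40 and 27.4, and the third control PeF array had the lowest. The log2 ratio of the 3′ over the 5′ probe set of Gapdh, a sign of RNA quality, was 2.07 to 2.31 in control PoF and 2.96 to 4.11 in control PeF. It was 2.66 to 2.95 in RU PeF, 2.86 to 3.27 in RU UF, 2.59 to 3.63 in IM PeF and 2.19 to 3.86 in IM UF. Its part in the differences below was not tested. Of 9 granulosa markers on the array, all 9 were tested and 7 stood above background on every array. Of 6 oocyte markers, 4 were tested and 0 stood above background on every array.

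Both claudins were lower in RU486-treated follicles than in the controls of their time. By probe set 1383946_at, Cldn1 was 4.83-fold lower in RU PeF than in control PeF and 4.52-fold lower in RU UF than in control PoF. Cldn1 was near background in RU UF. Its other tested probe sets, 1396150_at and 1387470_at, were lower too but not called in either comparison. Cldn11 was 3.32-fold and 3.11-fold lower. The RU PeF calls of both claudins and the RU UF call of Cldn11 ended with the signals as deposited. No member was called in an indomethacin group against the control of its time, where 0.00% of all genes were called at 22:00 and 0.0481% at 10:00. In untreated follicles Gja5, Cldn1 (by 1383946_at only) and Tjp1 fell and Cldn11 rose between 22:00 and 10:00, where 44.1% of all genes were called. The Cldn1 and Tjp1 calls ended with median scaling, and that of Tjp1 also without control PeF 3. The Cldn11 call ended without any one of 5 arrays. The differences of Gja5, Cldn1 and Tjp1 turned sign with the signals as deposited, which were not on a common level between arrays.

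Counted by 1 probe set per gene, 3 of 8 members were called in RU PeF against control PeF, all lower. Over all 10391 genes tested, 8.53% were called and 4.75% were called lower. The median difference was -0.49 over the members and 0.05 over all genes. In RU UF against control PoF, 3 of 8 were called, again all lower, where 9.98% of all genes were called and 5.46% were lower. The median was -0.35 over the members and -0.04 over all genes. In IM PeF against control PeF, 0 of 8 were called by limma, where 0.00% of genes were called and 2074 probe sets had an unadjusted p under 0.05. In IM UF against control PoF, 0 of 8 were called by limma, where 0.0481% of genes were called and 1265 probe sets had an unadjusted p under 0.05.

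Between the times, 4 of 8 members were called in control PoF against control PeF, 1 higher and 3 lower, where 44.1% of all genes were called, 24.4% higher and 19.7% lower. In IM UF against IM PeF it was 5 of 8, 2 higher and 3 lower, where 37.8% of genes were called, 19.4% higher and 18.4% lower. In RU UF against RU PeF it was 6 of 8, 2 higher and 4 lower, where 42.7% were called, 21.3% higher and 21.4% lower. The members' shares were read against these, and that of the untreated follicles was close to it.

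**Figure D1:**
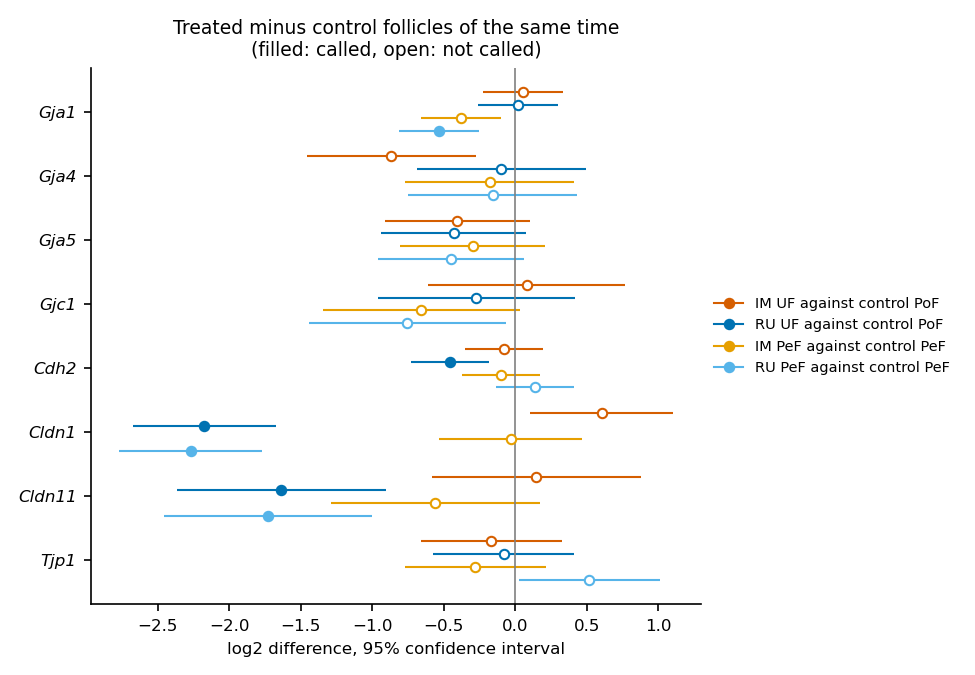
Log2 difference of each drug group from the control of its time (points, with 95% confidence intervals from limma) for the 8 members tested. Cldn1 and Cldn11 lie below 0 in both RU486 comparisons, at -2.27 and -1.73 in RU PeF and at -2.18 and -1.64 in RU UF.

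Gja1 was read by probe set 1372002_at, the brightest of the members, with deposited signals up to 9719. Its normalized log2 signal was 13.04, 12.59 and 12.85 in IM UF, 12.88, 12.61 and 12.88 in RU UF, and 12.76, 12.76 and 12.80 in control PoF. At 22:00 it was 12.22, 11.96 and 12.05 in IM PeF, 11.91, 12.17 and 11.70 in RU PeF, and 12.45, 12.27 and 12.65 in control PeF. The 10:00 groups overlapped each other, and at 22:00 both drug groups lay wholly below the control. In RU PeF Gja1 was lower than in control PeF, with a log2 difference of -0.53 ± 0.13 (SE; adjusted p = 0.0210, limma), a fold of 1.45. That call ended without control PeF 3 (-0.43, adjusted p = 0.0664), RU PeF 1 (-0.52, adjusted p = 0.0602) or RU PeF 3 (-0.42, adjusted p = 0.114). The Gja1 difference was -0.30 and not called with median scaling (adjusted p = 0.335), -0.33 and called with array quality weights (adjusted p = 0.0270), and not called with only the compared groups in the fit (adjusted p = 0.142). With the signals as deposited, where the median gene stood 0.83 higher in RU PeF, the difference was 0.29, or -0.54 relative to that gene. In IM PeF the difference was -0.38 ± 0.13 and was not called (adjusted p = 0.365, limma).

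At 10:00 no drug group was called for Gja1. RU UF stood at 0.02 from control PoF with a 95% interval of -0.26 to 0.30, and IM UF at 0.05 with an interval of -0.23 to 0.33. Gja1 rose by 0.87 ± 0.13 between RU PeF and RU UF (adjusted p = 6.07e-05, limma) and by 0.75 ± 0.13 between IM PeF and IM UF (adjusted p = 0.000322, limma). The difference between control PoF and control PeF was 0.31 ± 0.13 and was not called (adjusted p = 0.0700, limma), but it was 0.41 and called without control PeF 3 (adjusted p = 0.0299). The RU486 effect at 10:00 minus that at 22:00 was 0.55 ± 0.19 for Gja1 (adjusted p = 0.114, limma), so the effects were not shown to differ between the times. The other Gja1 probe sets, 1369640_at and 1369639_at, stood above background on 9 and 1 of 18 arrays and were not tested.

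Gja4 was dim but above background on all 18 arrays. Probe set 1370023_at gave 5.59, 4.32 and 5.10 in IM UF, 5.98, 5.82 and 5.53 in RU UF and 5.81, 5.70 and 6.10 in control PoF. It gave 6.09, 6.14 and 6.48 in IM PeF, 6.08, 6.32 and 6.38 in RU PeF and 6.15, 6.26 and 6.83 in control PeF. IM UF 2, among the 3 dimmest arrays, had the lowest value, with a deposited signal of 7.39 beside a background of 5.42. IM UF lay wholly below both control PoF and IM PeF and overlapped RU UF. Gja4 fell by 1.24 ± 0.28 between IM PeF and IM UF, a 2.35-fold difference (adjusted p = 0.00249, limma). That difference ran from -1.53 to -0.90 as each array was left out and stayed called. The change was -0.48 ± 0.28 in RU486-treated follicles (adjusted p = 0.189, limma; 0.0490 without the 3 dimmest arrays) and -0.54 ± 0.28 in untreated follicles (adjusted p = 0.133, limma). IM UF stood at -0.87 ± 0.28 from control PoF, which was not called (adjusted p = 0.417, limma). The indomethacin effect at 10:00 minus that at 22:00 was -0.69 ± 0.40 (adjusted p = 0.601, limma), so a difference in time course was not shown.

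The oocyte markers were near background. Of 4 tested, 1 was called lower in IM UF against IM PeF and 0 higher, where 18.4% of all genes were lower, with a median of -1.94 and mean levels per array of 2.22 to 3.65 in IM UF and 3.53 to 5.91 in IM PeF. In RU UF against RU PeF it was again 1 lower and 0 higher, where 21.4% of genes were lower, with a median of -1.76 and mean levels of 3.42 to 4.03 in RU UF and 4.61 to 6.07 in RU PeF. The marker called in both was Gdf9, a growth factor of the oocyte, named after its values were seen. In control PoF against control PeF 0 were called, where 19.7% of genes were lower, with a median of -0.66. Mean levels there were 2.60 to 4.04 in control PoF and 2.84 to 5.08 in control PeF. In these bulk samples fewer cells of a type and less RNA per cell cannot be told apart. The part of oocyte RNA, or of RNA from other cells of the follicle, in the Gja4 values was not tested.

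Gja5 (connexin 40), which is known from the endothelium of arteries and from the heart, was lower at 10:00 in all 3 treatments. Probe set 1368473_at gave 4.98, 4.84 and 4.63 in IM UF, 4.77, 4.38 and 5.23 in RU UF, and 4.92, 5.51 and 5.24 in control PoF. It gave 5.95, 6.07 and 6.01 in IM PeF, 5.77, 6.03 and 5.78 in RU PeF, and 6.22, 6.23 and 6.48 in control PeF. No 10:00 sample reached the lowest 22:00 sample. Gja5 fell by 1.09 ± 0.24 between control PeF and control PoF (2.12-fold, adjusted p = 0.00175, limma). With the signals as deposited, where the median gene stood 1.38 higher in control PoF, the difference was 0.27, or -1.11 relative to that gene. Gja5 fell by 1.20 ± 0.24 between IM PeF and IM UF (adjusted p = 0.000938, limma) and by 1.07 ± 0.24 between RU PeF and RU UF (adjusted p = 0.00190, limma). All 3 calls held without any one array. The drug effects were between -0.30 and -0.45 and none was called. Of 9 endothelial markers, 1 was called higher and 2 lower in control PoF against control PeF, with mean levels of 6.66 to 6.69 in control PoF and 6.51 to 6.69 in control PeF. It was 1 higher and 1 lower in IM UF against IM PeF, with mean levels of 6.28 to 6.39 in IM UF and 6.31 to 6.49 in IM PeF. In RU UF against RU PeF it was 0 higher and 2 lower, with mean levels of 5.89 to 6.40 in RU UF and 6.06 to 6.26 in RU PeF. In the order of these comparisons, 24.4%, 19.4% and 21.3% of all genes were called higher and 19.7%, 18.4% and 21.4% lower. The part of endothelial RNA in the Gja5 values was not tested.

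Gjc1 (connexin 45) was called in no comparison. Probe set 1384139_at gave 6.17, 6.84 and 5.97 in IM UF, 5.84, 5.89 and 6.18 in RU UF, and 6.30, 6.29 and 6.15 in control PoF. It gave 6.57, 5.92 and 6.41 in IM PeF, 6.29, 6.38 and 5.93 in RU PeF, and 6.56, 6.38 and 7.94 in control PeF. The value of 7.94 came from control PeF 3, the dimmest array, and stood apart from all other arrays, of which the next was IM UF 2 at 6.84. The difference of control PoF from control PeF was -0.71 ± 0.33 (adjusted p = 0.0933, limma). It was called without control PeF 1 (-0.91, adjusted p = 0.0476) or control PeF 2 (adjusted p = 0.0289), and so kept that array.

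**Figure D2:**
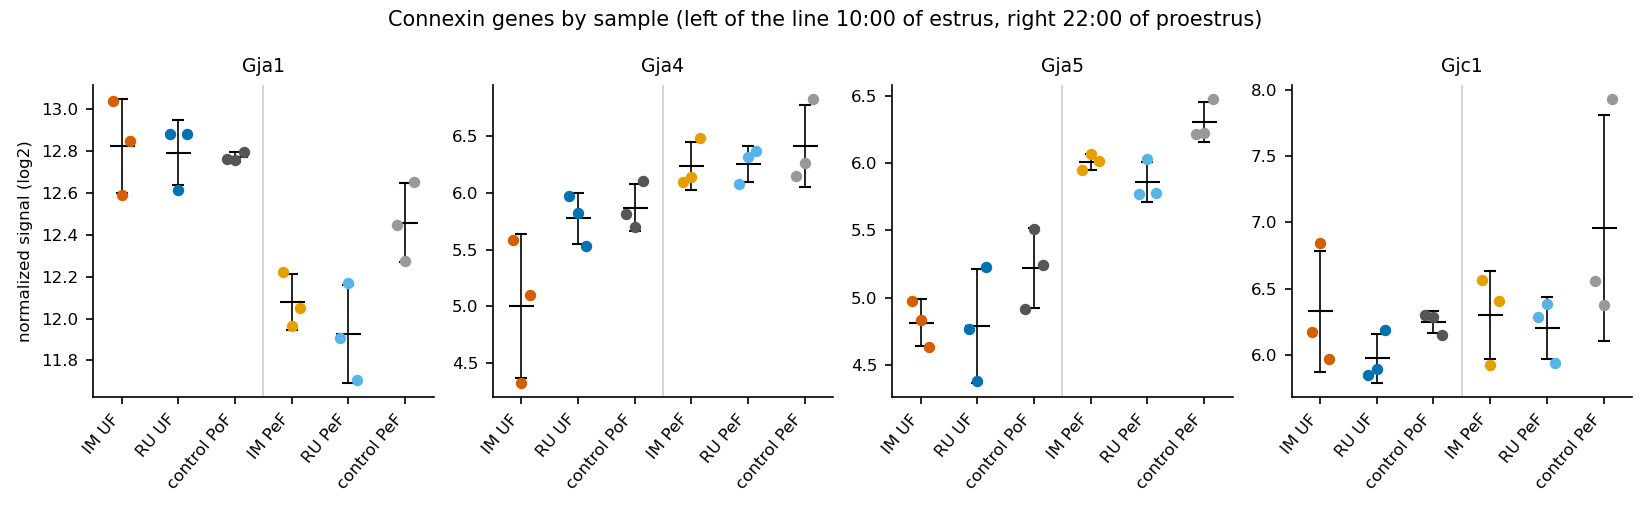
Normalized log2 signal of Gja1, Gja4, Gja5 and Gjc1 by sample, with the mean and SD of each group of 3 arrays, 10:00 groups left of the line and 22:00 groups right of it. Gja5 is lower in every 10:00 sample than in any 22:00 sample, and 1 control PeF array stands apart for Gjc1 at 7.94.

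The promoter of Gja1 is shown because Gja1 was the one member called lower in RU PeF and not called in RU UF. Its RU486 effects were not shown to differ between the times, and the RU PeF call ended in several other fits. The sequence spans 250 bases before and 50 after the start in RefSeq's GRCr8 table (chr20:36302314-36302613, plus strand), with matches of AP-1 (TGANTCA) and of the AT-rich hexamer TTTAAA in capitals. Both strands were also searched for the CRE (TGACGTCA), the steroid receptor half-site AGAACA, the SP1 box GGGCGG and the NR5A1 site AAGGTCA, each with 0 matches in Gja1.
Gja1: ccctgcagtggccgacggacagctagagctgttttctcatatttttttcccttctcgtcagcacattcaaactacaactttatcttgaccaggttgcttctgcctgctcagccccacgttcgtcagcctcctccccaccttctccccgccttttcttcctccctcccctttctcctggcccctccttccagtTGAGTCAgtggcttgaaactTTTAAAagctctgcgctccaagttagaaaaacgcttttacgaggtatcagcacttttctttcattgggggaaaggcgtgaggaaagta
The AP-1 match begins at base 193 of the window, and 7.33% of 33469 rat promoters of this length hold such a match on either strand. TTTAAA begins at base 213, and 13.6% of promoters hold it. Both are matches of letters only.

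Cdh1 (E-cadherin), the cadherin of epithelia, was near or under background. Its probe sets 1386947_at and 1386446_at stood above background on 3 and 0 of 18 arrays, with a highest deposited signal of 17.9, so its level was not measurable here.

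Cdh2 (N-cadherin), the cadherin that granulosa cells are known to carry, had a pair of bright probe sets that moved differently over time. Probe set 1368642_at gave 10.13, 9.93 and 9.77 in IM UF, 9.61, 9.56 and 9.53 in RU UF, and 10.23, 9.89 and 9.95 in control PoF. It gave 9.87, 9.64 and 9.97 in IM PeF, 10.21, 10.11 and 9.86 in RU PeF, and 9.94, 10.03 and 9.80 in control PeF. RU UF lay below every sample of the other groups, with IM PeF 2 nearest to it at 9.64. It was lower in RU UF than in control PoF, at -0.46 ± 0.13, a fold of 1.37 (adjusted p = 0.0359, limma), and that call ended without any one of the 6 arrays, with values of -0.52 to -0.35. It also ended with median scaling (-0.61, adjusted p = 0.207) and without a filter on low values (adjusted p = 0.0596). Cdh2 1368642_at also fell by 0.50 ± 0.13 between RU PeF and RU UF (adjusted p = 0.00565, limma), a call that ended with median scaling (-0.64, adjusted p = 0.0529).

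Probe set 1387259_at gave 8.80, 8.59 and 8.38 in IM UF, 8.47, 8.52 and 8.58 in RU UF, and 9.16, 8.98 and 9.18 in control PoF. It gave 9.91, 9.18 and 9.99 in IM PeF, 10.20, 10.06 and 10.22 in RU PeF, and 9.81, 9.69 and 9.07 in control PeF. Both unruptured groups were wholly below control PoF. It fell by 1.64 ± 0.20 between RU PeF and RU UF, a 3.12-fold difference (adjusted p = 4.71e-06, limma), and by 1.11 ± 0.20 between IM PeF and IM UF (adjusted p = 0.000324, limma). In untreated follicles the change in Cdh2 1387259_at was -0.42 ± 0.20 and was not called (adjusted p = 0.0999, limma), but it was -0.65 and called without control PeF 3 (adjusted p = 0.0122). Between IM PeF and IM UF the other probe set stood at 0.12 ± 0.13 (adjusted p = 0.515, limma), so the probe sets of Cdh2 disagree on its time course under indomethacin. The files do not give the position of either probe set in the transcript. A further probe set of Cdh2, 1378271_at, was above background on 9 of 18 arrays and was not tested.

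The RU486 effect on probe set 1387259_at was -0.58 ± 0.20 at 10:00 (adjusted p = 0.0822, limma) and 0.64 ± 0.20 at 22:00 (adjusted p = 0.0582, limma). Both were called without the 3 dimmest arrays, at -0.58 (adjusted p = 0.00209) and 0.41 (adjusted p = 0.0434). The effect at 10:00 minus that at 22:00 was -1.22 ± 0.28 and was called (adjusted p = 0.0201, limma), but not with median scaling (-1.73, adjusted p = 0.0531) or without control PoF 3 (adjusted p = 0.0510) or RU PeF 3 (adjusted p = 0.0513). It was the only one of 11 member probe sets called in that comparison, where 4.02% of all probe sets tested were called. For 1368642_at the same quantity was -0.60 ± 0.18 (adjusted p = 0.0809, limma). By 1 probe set per gene, 0 of 8 members were called there by limma, where 4.44% of genes were called and 3447 probe sets had an unadjusted p under 0.05. In the same comparison for indomethacin 0 of 8 were called by limma, where 0.00% of genes were called and 1641 probe sets had an unadjusted p under 0.05.

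**Figure D3:**
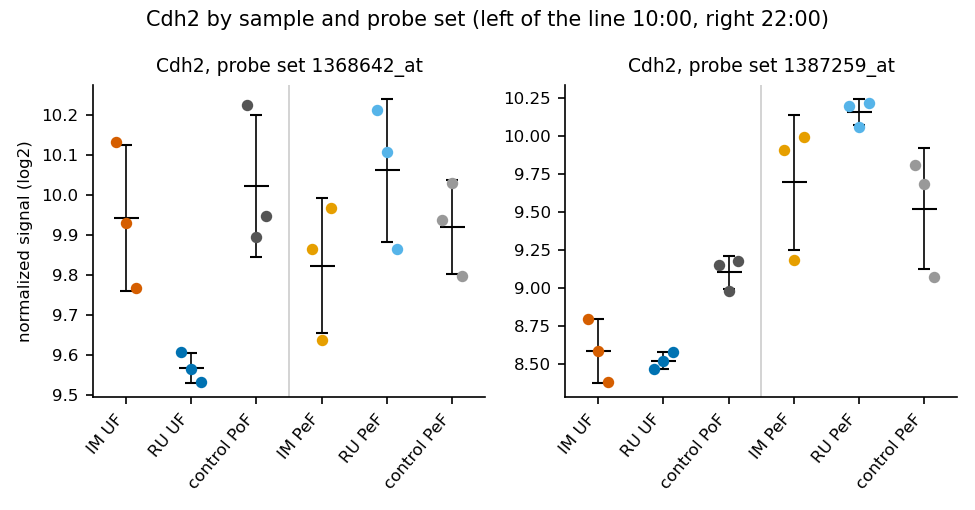
Normalized log2 signal of both bright Cdh2 probe sets by sample, with the mean and SD of each group of 3 arrays, 10:00 groups left of the line and 22:00 groups right of it. RU UF is the lowest group for 1368642_at, and for 1387259_at RU UF and IM UF are low and RU PeF is the highest.

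The claudins are shown with their promoters because both were called lower in RU486-treated follicles at both times, Cldn1 by probe set 1383946_at. The windows are those of RefSeq's GRCr8 table, Cldn1 at chr11:87926126-87926425 on the plus strand and Cldn11 at chr2:114149490-114149789 on the minus strand. Capitals mark the SP1 box GGGCGG and the hexamer TTTAAA, each searched on both strands.
Cldn1: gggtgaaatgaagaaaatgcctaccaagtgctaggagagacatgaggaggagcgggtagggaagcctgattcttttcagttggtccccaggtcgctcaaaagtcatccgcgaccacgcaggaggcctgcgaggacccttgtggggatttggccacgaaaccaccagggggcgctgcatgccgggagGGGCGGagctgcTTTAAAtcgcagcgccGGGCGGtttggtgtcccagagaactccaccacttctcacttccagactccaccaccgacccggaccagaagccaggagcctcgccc
Cldn11: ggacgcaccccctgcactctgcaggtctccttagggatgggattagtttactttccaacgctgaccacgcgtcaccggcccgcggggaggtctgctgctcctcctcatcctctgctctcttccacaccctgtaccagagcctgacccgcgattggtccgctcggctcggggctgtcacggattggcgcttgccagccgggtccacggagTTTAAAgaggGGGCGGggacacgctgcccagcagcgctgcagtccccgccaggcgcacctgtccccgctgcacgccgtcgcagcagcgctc
Both windows are rich in G and C, at 60.7% in Cldn1 and 67.0% in Cldn11 beside a median of 51.7% over all promoters. The SP1 box occurs 2 times in Cldn1 and 1 time in Cldn11, and 33.1% of promoters hold it. The half-site AGAACA of the progesterone and glucocorticoid receptors was found in 0 of the 6 member promoters in the table, where 20.7% of all promoters hold it. These are letters in a short window and say nothing of binding.

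Cldn1, which seals the contacts between epithelial cells, was by probe set 1383946_at the member with the largest difference between RU486-treated and control follicles. By its other tested probe sets the difference was smaller than that of Cldn11. Probe set 1383946_at gave 3.75, 3.73 and 3.19 in RU UF, against 6.12, 5.45 and 5.63 in control PoF. It gave 4.74, 4.61 and 4.28 in RU PeF, against 6.84, 6.67 and 6.93 in control PeF. Under indomethacin it gave 6.25, 6.22 and 6.55 in IM UF and 6.85, 6.60 and 6.90 in IM PeF. Every RU486 sample lay below every sample of the other groups, and the third RU UF array was below its background.

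Cldn1 was lower in RU PeF than in control PeF, at -2.27 ± 0.24 (adjusted p = 1.70e-05, limma) and in RU UF than in control PoF, at -2.18 ± 0.24 (adjusted p = 2.00e-05, limma). With the pseudocount at 16.4, the median of all values, the RU UF difference of Cldn1 was -1.40 and still called (adjusted p = 5.19e-05). The RU486 effect at 10:00 minus that at 22:00 was 0.09 ± 0.34 for Cldn1, with a 95% interval of -0.61 to 0.81 (adjusted p = 0.911, limma). Indomethacin left Cldn1 at -0.03 ± 0.24 from the control at 22:00 (adjusted p = 0.967, limma) and at 0.60 ± 0.24 at 10:00 (adjusted p = 0.588, limma). The drugs were also compared directly. Indomethacin was given at 16:00 and RU486 at 10:00 of proestrus, so drug and dosing hour cannot be told apart in any comparison between the drugs. Cldn1 was higher in IM PeF than in RU PeF by 2.24 ± 0.24, a 4.72-fold difference (adjusted p = 1.62e-05, limma). It was higher in IM UF than in RU UF by 2.78 ± 0.24, a 6.87-fold difference (adjusted p = 3.46e-06, limma). The RU UF signals were 6.48 to 10.28 beside array backgrounds of 6.73 to 7.27, so the size of that fold is uncertain.

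The second Cldn1 probe set, 1396150_at, moved the same way by less. Its difference was -1.07 ± 0.33 in RU PeF against control PeF (adjusted p = 0.0581, limma) and -0.86 ± 0.33 in RU UF against control PoF (adjusted p = 0.129, limma), neither called. It was called higher in IM PeF than in RU PeF at 1.43 ± 0.33 (adjusted p = 0.0154, limma) and in IM UF than in RU UF at 1.26 ± 0.33 (adjusted p = 0.0279, limma). The first of these calls ended with only the compared groups in the fit (adjusted p = 0.0568) and without IM PeF 2 or RU PeF 2, with values of 1.06 to 1.73 as arrays were left out. The second ended without any one of the IM UF arrays, RU UF 1 or RU UF 3, with values of 0.96 to 1.52. Probe set 1387470_at stood above background on 10 of 18 arrays. It was called higher in IM PeF than in RU PeF (adjusted p = 0.0255, limma) and lower in IM UF than in IM PeF (adjusted p = 0.0485, limma). Each call ended without any one of 5 arrays and with only the compared groups in the fit (adjusted p = 0.0525 and 0.0741). IM PeF was the only group in which 1387470_at exceeded the array median on every array. Without that group the probe set would not have passed the filter on low signals. Both calls set IM PeF against a lower group, so they are not independent of that filter.

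Over time Cldn1 fell in untreated and in RU486-treated follicles by 1383946_at. Its difference was -1.08 ± 0.24 in control PoF against control PeF (2.12-fold, adjusted p = 0.00168, limma) and -0.99 ± 0.24 in RU UF against RU PeF (adjusted p = 0.00319, limma). The control difference of Cldn1 was -0.72 and no longer called with median scaling (adjusted p = 0.0563), and 0.34 with the signals as deposited, or -1.04 relative to the median gene. With the pseudocount at 16.4 the RU486 time difference of Cldn1 was -0.54 and still called (adjusted p = 0.0210). The difference was -0.44 ± 0.24 in IM UF against IM PeF and was not called (adjusted p = 0.167, limma). Probe set 1396150_at did not follow in untreated follicles, at -0.13 ± 0.33 (adjusted p = 0.774, limma). Nor did 1396150_at fall under RU486, with means of 4.72 in RU UF and 4.65 in RU PeF.

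Cldn11, known as the claudin of myelin and of the Sertoli cell barrier, moved up with time and down with RU486. Probe set 1376711_at gave 6.44, 6.81 and 7.49 in RU UF, against 8.66, 8.45 and 8.54 in control PoF. It gave 6.66, 6.08 and 4.84 in RU PeF, against 7.43, 7.36 and 7.98 in control PeF. It gave 8.78, 8.39 and 8.92 in IM UF and 7.03, 7.32 and 6.74 in IM PeF. RU486 samples lay wholly below the control of their time, and the spread was widest in RU PeF, where RU PeF 3 was the lowest.

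The difference of Cldn11 was -1.73 ± 0.35 in RU PeF against control PeF (adjusted p = 0.00562, limma; 0.0998 with only the compared groups in the fit) and -1.64 ± 0.35 in RU UF against control PoF (adjusted p = 0.00606, limma). Cldn11 was 3.45-fold higher in IM UF than in RU UF, at 1.79 ± 0.35 (adjusted p = 0.00411, limma). In IM PeF against RU PeF it was 1.17 ± 0.35 and was not called (adjusted p = 0.0603, limma), and it was 1.57 and called without RU PeF 1 (adjusted p = 0.0116). By 1 probe set per gene, 1 of 8 members was called in IM PeF against RU PeF, where 6.02% of genes were called and 3.85% were higher. In IM UF against RU UF it was 2 of 8, both higher, where 7.86% were called and 4.38% were higher.

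Over time Cldn11 rose in all 3 treatments. The difference was 1.67 ± 0.35 in IM UF against IM PeF (adjusted p = 0.00121, limma), 1.05 ± 0.35 in RU UF against RU PeF (adjusted p = 0.0224, limma) and 0.96 ± 0.35 in control PoF against control PeF (adjusted p = 0.0350, limma). The groups overlapped under RU486. That call ended without RU PeF 3 (0.55, adjusted p = 0.159) or RU UF 3 (0.77, adjusted p = 0.124), and with only the compared groups in the fit (adjusted p = 0.0631). The control call of Cldn11 ended without a filter on low values (adjusted p = 0.0511) and without any one of control PeF 1, control PeF 2 and the control PoF arrays, and the values were 0.85 to 1.16 as arrays were left out.

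Markers of smooth muscle and pericytes, which surround the follicle and its vessels, were counted in the same comparisons. Of 9 tested, 4 were called lower and 0 higher in RU PeF against control PeF, where 4.75% of all genes were lower, with mean levels of 4.85 to 5.09 in RU PeF and 5.54 to 5.90 in control PeF. In RU UF against control PoF 0 were called in either direction, with mean levels of 5.81 to 5.92 in RU UF and 6.44 to 6.68 in control PoF. In IM UF against RU UF 3 were called higher and 0 lower, where 4.38% of genes were higher, with a median of 1.00. Over time 6 rose and 1 fell in untreated follicles, 7 rose and 0 fell under indomethacin, and 6 rose and 1 fell under RU486. The shares of all genes that rose in these comparisons were 24.4%, 19.4% and 21.3%. Of 4 tested markers of the ovarian surface epithelium, 0 were called lower in RU PeF and 2 in RU UF, where 5.46% of genes were lower, with mean levels of 4.44 to 4.75 in RU UF and 5.28 to 5.94 in control PoF. The part of these cells in the claudin values was not tested.

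Tjp1 (ZO-1) was lower at 10:00 in all 3 treatments. Probe set 1372473_at gave 9.73, 9.61 and 9.77 in IM UF, 9.81, 9.76 and 9.80 in RU UF, and 9.99, 9.86 and 9.76 in control PoF. It gave 10.77, 9.79 and 10.65 in IM PeF, 11.07, 11.08 and 11.46 in RU PeF, and 10.25, 10.51 and 11.29 in control PeF. The 10:00 samples were close together and the 22:00 samples spread widely, with IM PeF 2 near the 10:00 level and control PeF 3 high. Tjp1 fell by 1.41 ± 0.23 between RU PeF and RU UF, a 2.66-fold difference (adjusted p = 0.000123, limma). It fell by 0.82 ± 0.23 between control PeF and control PoF (1.76-fold, adjusted p = 0.0102, limma), a call that ended without control PeF 3 (-0.51, adjusted p = 0.0656). It was called at -0.51 without the 3 dimmest arrays (adjusted p = 0.00389) and not called at -0.52 with median scaling (adjusted p = 0.135). With the signals as deposited this Tjp1 difference was 0.62, or -0.76 relative to the median gene. Tjp1 fell by 0.71 ± 0.23 between IM PeF and IM UF (adjusted p = 0.0269, limma), a call that ended without any one array but IM PeF 2, with values of -1.01 to -0.52, and with median scaling (-0.62, adjusted p = 0.0857).

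Tjp1 was not called in RU PeF against control PeF, at 0.52 ± 0.23 (adjusted p = 0.188, limma), but was 0.82 and called without control PeF 3 (adjusted p = 0.0207) and without the 3 dimmest arrays (adjusted p = 0.000503). At 10:00 RU UF stood at -0.08 from control PoF, with a 95% interval of -0.57 to 0.41. Probe set 1395337_at was above background on 6 of 18 arrays and was not tested.

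**Figure D4:**
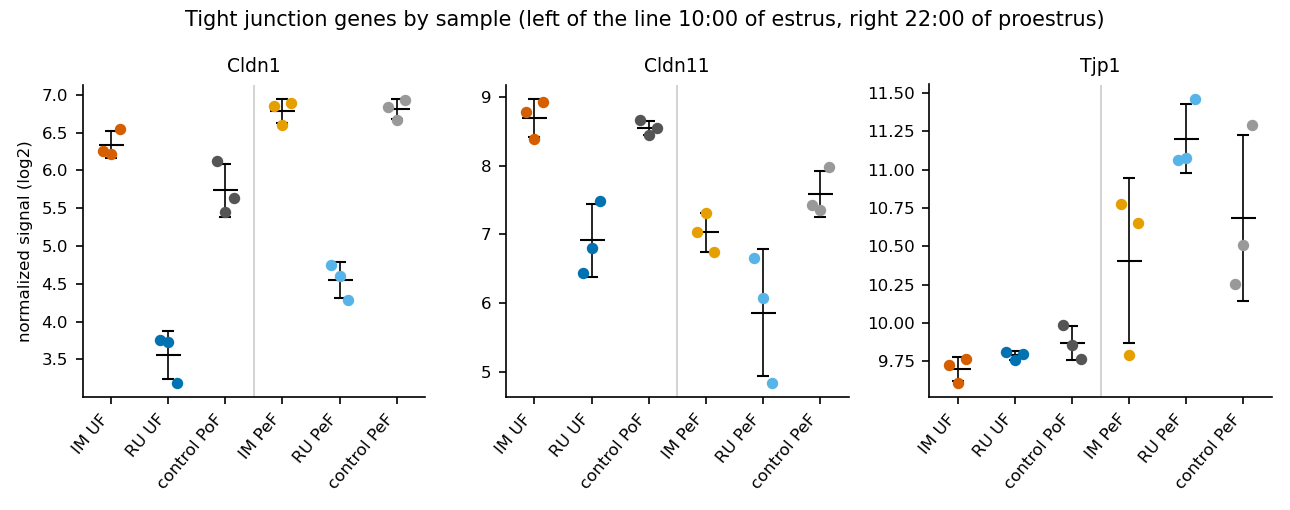
Normalized log2 signal of Cldn1, Cldn11 and Tjp1 by sample, with the mean and SD of each group of 3 arrays, 10:00 groups left of the line and 22:00 groups right of it. RU UF and RU PeF are the lowest groups for Cldn1, and Tjp1 is between 9.61 and 9.99 in all 9 samples of 10:00.

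**Figure D5:**
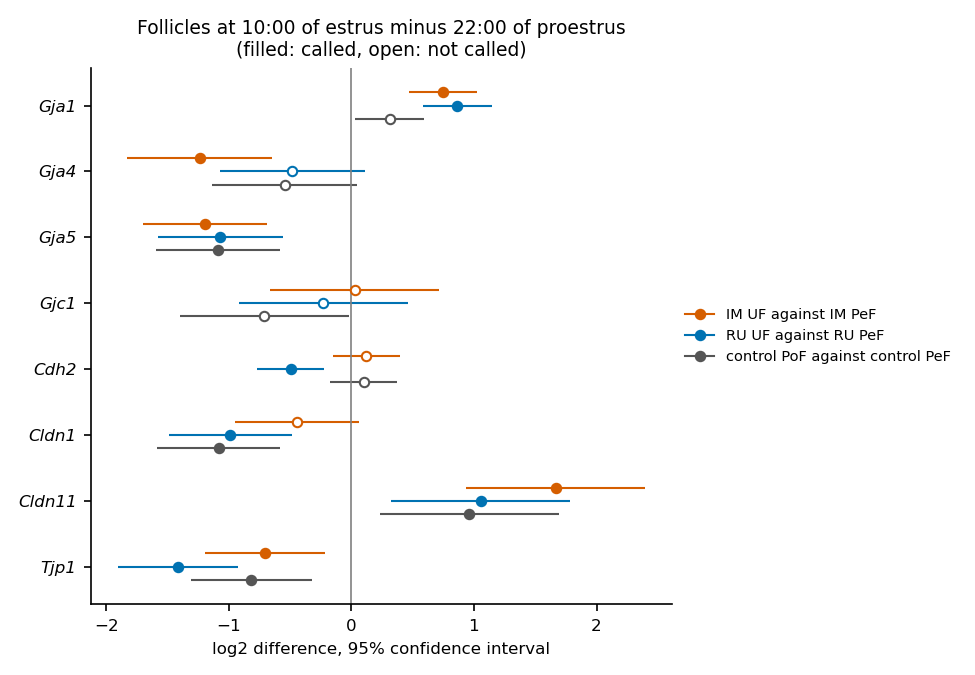
Log2 difference of the 10:00 group from the 22:00 group within each treatment (points, with 95% confidence intervals from limma) for the 8 members tested. Gja5 is at -1.20 under indomethacin, -1.07 under RU486 and -1.09 untreated (0.27 in the last with the signals as deposited), Tjp1 is lowest under RU486 at -1.41, and Cldn11 is above 0 in all 3.

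Other junction genes of the array were counted from lists by the same test. Of 16 adherens junction genes tested, 4 rose and 7 fell in control PoF against control PeF, where 24.4% of all genes rose and 19.7% fell, with a median of -0.22 beside 0.08 over all genes. Jup (plakoglobin), which links cadherins to the cytoskeleton, was higher by 2.92 ± 0.26 and Nectin3, an adhesion molecule of the immunoglobulin family, differed by -1.55 ± 0.22 (SE; adjusted p = 2.38e-07 for Jup and 2.92e-05 for Nectin3, limma). In RU PeF against control PeF 0 rose and 4 fell, where 3.77% of all genes rose and 4.75% fell, with a median of -0.23 beside 0.05. Vcl (vinculin), an actin linker, differed there by -1.22 and Cdh11, a cadherin of mesenchymal cells, by -1.21.

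Of 12 tight junction genes tested, 4 rose and 2 fell in untreated follicles between 22:00 and 10:00, where 24.4% of all genes rose and 19.7% fell, with a median of 0.55 beside 0.08 over all genes. In RU PeF against control PeF 1 rose and 1 fell, with a median of -0.10 beside 0.05. Those were Pard3, a polarity protein, named after its values were seen, and Jam2, an adhesion molecule of tight junctions. In control PoF against control PeF, Magi1, a junction scaffold, was higher by 1.80 and Cldn12, a claudin, differed by -1.48. Jam2 was higher by 1.13 over time in untreated follicles and differed by -1.06 in RU PeF against control PeF. Of 2 other connexins and pannexins tested, Panx1, a channel protein, differed by -1.78 in control PoF against control PeF.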

How the data were processed

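Total RNA of laser-microdissected follicles was labelled with biotin and hybridized to Affymetrix arrays, 1 per sample, per the labels' protocols. The deposited values are intensity, linear signals per probe set with a floor of 1. The submitters' processing notes name MAS5 without a version, and how it was run is not stated in them. The medians of the deposited intensity differed between arrays.

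From these, quantile normalization, log2 of the signal plus 2.79 (a pseudocount, the deposited values' percentile 20) and a filter were computed. Tests covered the 18155 probe sets that exceeded the array median on 3 or more of 18 arrays. Each gene was counted by its brightest tested probe set on average (10391 genes). Of the probe sets, 20826 had 1 symbol, 436 several and 9780 none. The 57 control probe sets were left out.

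limma 3.58.1 in R 4.3.3 fitted 1 mean per group over 18 samples with a variance trend. Adjusted p came from Benjamini-Hochberg over all tested probe sets within each of 11 comparisons, at 0.05, and the fit was tested on simulated data. The number of arrays limits the precision. With 3 samples a group, a two-sided exact permutation p cannot go below 0.1.

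All members are named. Other junction genes are named from those called with a log2 difference of at least 1, up to 4 per list and comparison. The genes most like a member were the 3 with the highest correlation over 18 arrays. The members, lists and processing were chosen with earlier results of these data known. Alternatives were other scalings, pseudocounts, filters, fits and sets of arrays. Promoters are RefSeq's (GRCr8), of which 6 members had one. Plots used matplotlib 3.10.9 (Python 3.11.15).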

Additional observations from a re-analysis of the deposited data

Results flagged for a closer look

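The effect of RU486 on Cdh2 probe set 1387259_at differed between the times, as the effect at 10:00 minus that at 22:00 was -1.22 ± 0.28 (SE; adjusted p = 0.0201, limma). The 3 RU PeF arrays lay above the 3 control PeF arrays, and the 3 RU UF arrays lay below the 3 control PoF arrays. For Cdh2 probe set 1368642_at the same quantity was -0.60 ± 0.18 (adjusted p = 0.0809, limma). The call on 1387259_at ended without control PoF 3 (adjusted p = 0.0510) or RU PeF 3 (adjusted p = 0.0513), with values between -1.37 and -0.99 as each array was left out. It was -1.73 and not called with median scaling (adjusted p = 0.0531).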

How the results depend on the processing

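With the signals as deposited, of 8 members 2 were called in control PoF against control PeF (4 in the reported fit), 0 in RU PeF against control PeF (3), 1 in RU UF against control PoF (3), 0 in IM UF against IM PeF (5), 0 in RU UF against RU PeF (6), 0 in IM PeF against RU PeF (1) and 0 in IM UF against RU UF (2). There Gja5 stood at 0.27, Cldn1 at 0.34 and Tjp1 at 0.62 in control PoF against control PeF, and Gja1 at 0.29 in RU PeF against control PeF, each with its sign turned. These signals were not on a common level, and the median gene moved by 1.38 and 0.83 in those comparisons. With median scaling, 2 members were called in control PoF against control PeF and 2 in IM PeF against RU PeF. In IM PeF against RU PeF the count was 2 with the pseudocount at the median of all values, 3 with array quality weights, 2 without the 3 dimmest arrays, and 1 to 2 as each replicate was left out. In RU PeF against control PeF it was 1 with only the compared groups in the fit. For the RU486 effect at 10:00 minus that at 22:00 it was 2 with array quality weights, 1 without the 3 dimmest arrays and 1 when any tested probe set of a member counted. As each replicate was left out, 486 to 1169 of all 18155 probe sets were called in IM PeF against RU PeF. With the signals as deposited the SE of Gja1 was 0.57. The shares of all genes called under the other settings are not given here. These counts therefore do not tell whether the members or the whole array lost or gained calls. The cause of these moves was not tested. With the replicate number as a block, 2 members were called in IM PeF against RU PeF, since Tjp1 at -0.80 was then called (adjusted p = 0.0442, limma), and no other call on a member changed. Same-numbered samples of different groups correlated at -0.30 to 0.12 in their deviations from the group means, so the numbers were not taken to pair the samples.

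Of 31 called differences of member probe sets, those still called numbered 30 with array quality weights, 23 with median scaling, 28 without a filter, 25 with only the compared groups, 30 with a pseudocount of 1, 31 with the pseudocount at the median, 31 with the replicate block, 2 with the signals as deposited and 30 without the 3 dimmest arrays. Without any one array of the compared groups, 20 of the 31 were kept in every fit. Differences called in neither fit turned sign in 43 of 121 cases with the signals as deposited and in 16 with median scaling. The dim probe sets of Cdh1 and the dim probe sets of Gja1, Gja5, Cdh2, Cldn11 and Tjp1 were limited by their signal over background.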

Other observations

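Desmosomes are a further kind of cell contact, anchored to intermediate filaments. Of 5 desmosome genes tested, 2 rose and 2 fell in control PoF against control PeF, where 24.4% of all genes rose and 19.7% fell, with a median of -0.10 beside 0.08 over all genes. Pkp2, a plakophilin of the desmosome plaque, was higher there by 2.75 and Dsg2, a desmosomal cadherin, by 1.59. In control PeF both were near background, at means of 3.92 and 4.18 with 2 of 3 arrays above it, so the sizes of these differences are uncertain. Dsp (desmoplakin), which ties the plaque to filaments, was likewise above background on 2 of 3 control PeF arrays. It differed by -1.71 in control PoF against control PeF, by -2.88 in IM UF against IM PeF and by 2.49 in IM PeF against RU PeF.

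For each member called in control PoF against control PeF, the 3 genes with the most similar levels over the 18 arrays are given as a description, since the arrays share normalization and time. For Gja5 they were Slc38a4 (Pearson's r 0.952), Alcam (0.946) and Plet1 (0.942). For Cldn1 they were Tmem35a (0.928), Lyve1 (0.921) and Xlr5c (0.915). For Cldn11 they were Pdlim3 (0.950), Ccdc80 (0.923) and Acot1 (0.917). For Tjp1 they were Plk2 (0.973), Hat1 (0.968) and Hmga1 (0.968).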
